A study of Saccharomyces cerevisiae with 4 samples.

Results

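The comparison of Guanine with DMSO sets 258 BY4741 cells grown with 10 µM guanine against 233 cells grown with 10 µM DMSO. These 491 cells were taken by the library label of each cell and are part of the 844 cells of 4 yeastDrop-Seq libraries, the others being MPA and MPA + Guanine (MPA is mycophenolic acid, an inhibitor of GMP synthesis). All cells were the haploid MATa strain BY4741 (his3Δ1 leu2Δ0 met15Δ0 ura3Δ0), labelled WT, and had grown for 18 h in CSM minimal medium with 2% glucose. By the Methods the Guanine medium held no DMSO, so the presence of guanine and the absence of DMSO cannot be told apart. Each condition is 1 library, so there is no test between conditions. Intervals in brackets are exact 95% intervals that cover counting error only.

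yeastDrop-Seq breaks single yeast cells open inside droplets, where a bead marks every captured mRNA with the barcode of its cell and a Unique Molecular Identifier (UMI), so that PCR copies of it count as 1 molecule. The Guanine library held 216768 UMIs (median 749.5 per cell) and the DMSO library 311199 (median 1250), and no barcode was shared between them. UMIs were summed over the cells of each library and scaled to CPM, the UMIs of a gene in 1000000 UMIs of its library. Of 4777 genes, 1678 had UMIs in both libraries and at least 50 in both together. They held 92.2% of the UMIs for Guanine and 89.6% for DMSO. In both libraries every gene with UMIs had a cell with at least 2, so genes listed at 0 may have been filtered and are given no ratio. Of the MATa genes, *MFA1* (a-factor) had 340 and 318 UMIs in Guanine and DMSO and *STE2* (the receptor for alpha-factor) 51 and 82. Of the MATalpha genes, *SAG1* alone was listed, with 7 UMIs in 6 DMSO-treated cells and 0 for Guanine. Of the genes deleted in the strain, *HIS3* had UMIs, but the his3Δ1 allele lacks only an internal part of the gene, so these check nothing.

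Guanine enters the yeast cell through the purine-cytosine permease Fcy2 and is turned into GMP by the phosphoribosyltransferase Hpt1. De novo, GMP is made from IMP by the IMP dehydrogenases Imd2, Imd3 and Imd4 and the GMP synthase Gua1. Most enzymes of amino acid synthesis are under the general control of the transcription factor Gcn4, which is made when uncharged tRNA activates the kinase Gcn2, and which binds the palindrome-like sequence TGACTCA before its target genes.

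With guanine, 157 genes (9.36% of those tested) were at least 2-fold higher and 77 (4.59%) at least 2-fold lower than with DMSO. All 157 and all 77 had counting intervals that excluded a ratio of 1, which the 2-fold cut with at least 50 UMIs nearly ensures. For 52 and 13 of them the whole interval lay beyond 2-fold. Of all 1678 tested genes, 22.6% had an interval of the log2 ratio above 0 and 16.6% below 0. The median log2 ratio of all tested genes was 0.05, with quartiles of -0.37 and 0.44. With library totals that left out ribosomal protein genes, the counts were 184 higher and 54 lower. The higher genes included genes of amino acid synthesis, the vitamin B6 pair *SNZ1* and *SNO1*, and drug export and iron genes. The lower genes included chaperones, ribosome assembly factors and 3 proteasome subunits.

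**Figure D1:**
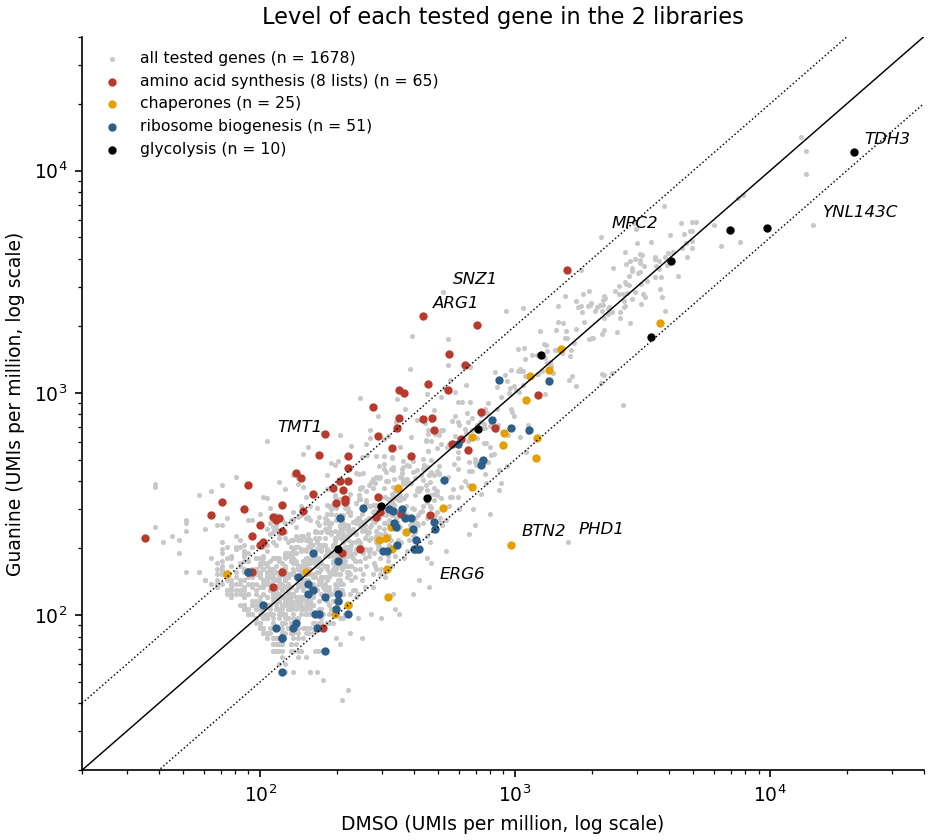
Level of each of the 1678 tested genes in the DMSO library (x axis) and the Guanine library (y axis), in CPM on log scales. The solid line marks equal levels and the dotted lines 2-fold differences. Amino acid synthesis genes (65) lie mostly above the solid line, chaperones (25) and ribosome biogenesis genes (51) mostly below it.

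Amino acid synthesis genes stood higher with guanine across most pathways. Of 89 genes in 8 lists, 65 were tested, of which 32 were at least 2-fold higher and 1 at least 2-fold lower, against 9.36% and 4.59% of all genes. Their median log2 ratio was 0.998, and 55 were above 0. Together the 89 genes held 3.93% of the UMIs for Guanine and 2.14% for DMSO.

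Arginine synthesis had 6 of 8 tested genes at least 2-fold higher and none 2-fold lower, with a median log2 ratio of 1.58. *ARG1*, argininosuccinate synthetase, had 434 CPM (364 to 513, 135 UMIs) with DMSO and 2219 CPM (2025 to 2426, 481 UMIs) with guanine, a log2 ratio of 2.35 (2.08 to 2.64). *ARG8*, acetylornithine aminotransferase, had 35.3 CPM with DMSO and 221 with guanine on 11 and 48 UMIs, a log2 ratio of 2.65 (1.68 to 3.74). *ARG3*, ornithine carbamoyltransferase, had 64.3 and 281 CPM, and *ARG4*, argininosuccinate lyase, 180 and 655 CPM. These 4 genes had the highest ratios of the list. All 8 tested genes of the list had an interval of the log2 ratio above 0, against 22.6% of all tested genes. The lowest log2 ratio of the list was 0.58, for *CPA1*. *ARG56*, as RefSeq spells ARG5,6, had 30 UMIs in all and was below the minimum. The breakdown enzyme *CAR1*, arginase, had 633 CPM with DMSO and 401 with guanine, a log2 ratio of -0.66 (-1.04 to -0.29).

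All 5 tested lysine genes were at least 2-fold higher, with a median log2 ratio of 1.52. The lowest was *LYS12* at 1.04, which lay between 0.72 and 1.11 over the settings tried. *LYS1*, saccharopine dehydrogenase, had 138 CPM (100 to 186) with DMSO and 434 (350 to 531) with guanine, the highest ratio of the list at 1.65 (1.11 to 2.21). *LYS20* and *LYS21*, the homocitrate synthases that start the pathway, had log2 ratios of 1.56 and 1.52. They share 95.4% of their sequence, so reads may have been split between them. All 4 tested histidine genes were also at least 2-fold higher. *HIS4*, which carries out several steps of the pathway, had 89.98 CPM (59.8 to 130) with DMSO and 383 (305 to 475) with guanine, a log2 ratio of 2.09 (1.46 to 2.76). *HIS2*, *HIS7* and *HIS1* had log2 ratios of 1.79, 1.13 and 1.01. *HIS1* stood at the threshold and had 0.35 with cells thinned to 400 UMIs, and *HIS7* had 0.90 with CPM averaged over cells. *HIS3*, which is truncated in this strain, had 247 CPM with DMSO and 946 with guanine, a log2 ratio of 1.93 (1.55 to 2.33).

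In the branched-chain pathway 6 of 9 tested genes were at least 2-fold higher, with a median log2 ratio of 1.16. *ILV5*, acetohydroxyacid reductoisomerase, was the most abundant, with 1594 CPM (1457 to 1740) with DMSO and 3566 (3319 to 3826) with guanine. *ILV3*, dihydroxyacid dehydratase, had the highest log2 ratio, 2.19 (1.48 to 2.95), with 70.7 CPM against 323. *LEU4*, α-isopropylmalate synthase, had 276 CPM with DMSO and 863 with guanine, and *LEU1*, the isomerase that follows it, 456 and 1093. The transaminases stood apart, with log2 ratios of 0.71 for *BAT1* and 0.06 (-0.28 to 0.40) for *BAT2*.

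The other pathways were split. In sulfur and methionine metabolism 6 of 14 tested genes were at least 2-fold higher, with a median of 0.60. *MET16*, which reduces activated sulfate, had 170 CPM (128 to 223) with DMSO and 526 (434 to 632) with guanine, and *HOM2*, aspartate semialdehyde dehydrogenase, 707 (617 to 807) and 2016 (1831 to 2214). The S-adenosylmethionine synthetases *SAM1* and *SAM2* had log2 ratios of 0.42 (0.04 to 0.80) and -0.14 (-0.74 to 0.44), and *SAH1*, which hydrolyses S-adenosylhomocysteine, -0.27 (-0.57 to 0.02). Of 8 aromatic genes, *ARO3* (1.23) and *ARO4* (1.14), the synthases of the first step, were at least 2-fold higher, and all 8 had log2 ratios above 0. Of 8 serine, threonine and proline genes, *SER1* (1.45) and *THR4* (1.19) passed 2-fold. The glutamate, glutamine and asparagine list had 1 of 9 tested genes at least 2-fold higher and 1 lower, with a median of -0.24. The intervals of 4 genes lay above 0 and of 3 below, against 22.6% and 16.6% of all tested genes. *GLT1*, glutamate synthase, had a log2 ratio of -1.01 (-1.85 to -0.24), *GLN1*, glutamine synthetase, -0.72 (-1.17 to -0.28), and *GDH1*, glutamate dehydrogenase, -0.33 (-0.58 to -0.08). Over the settings tried the log2 ratio of *GLT1* lay between -1.09 and -0.57. Above 0 were the aspartate aminotransferases *AAT2* (0.91) and *AAT1* (0.80) and the citrate synthase *CIT2* (0.80). The mitochondrial isocitrate dehydrogenase *IDP1* had 553 CPM with DMSO and 1499 with guanine, a log2 ratio of 1.44 (1.17 to 1.71). Amino acid permeases showed no such pattern, with 0 of 7 tested genes past 2-fold in either direction and a median of -0.00.

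**Figure D2:**
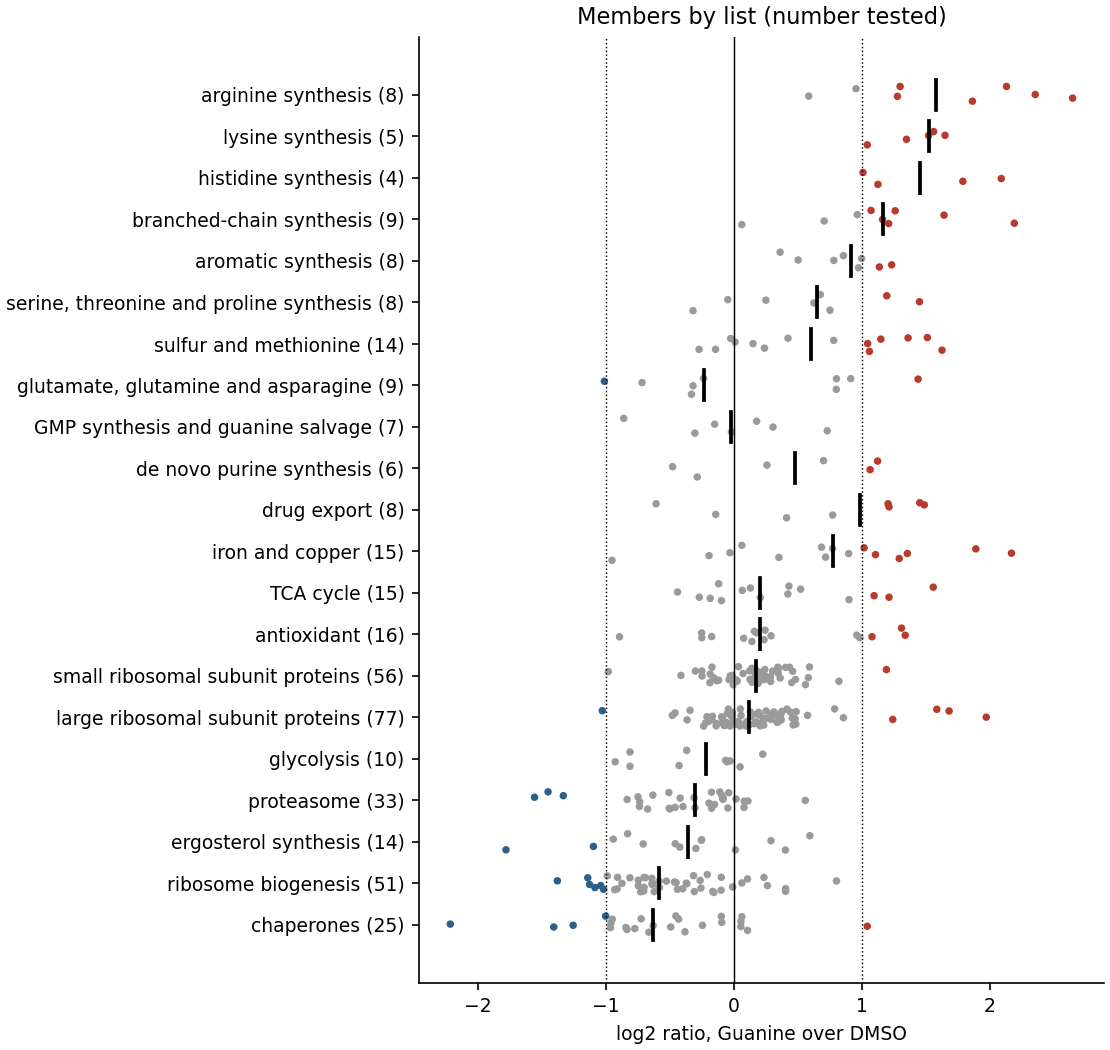
Log2 ratio of Guanine over DMSO (x axis) of each tested gene, by gene list with the number of tested genes in brackets. Black bars are list medians, dotted lines mark 2-fold, and red and blue points are genes at least 2-fold higher and lower. The medians run from 1.58 for arginine synthesis to -0.63 for chaperones.

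Of the genes that control these pathways, *GCN4* itself had 411 CPM (343 to 489) with DMSO and 757 (645 to 882) with guanine, a log2 ratio of 0.88 (0.54 to 1.22). Gcn4 is controlled mainly at translation, which these counts do not measure. *PCL5*, the cyclin that marks Gcn4 for degradation, had 206 CPM (158 to 263) with DMSO and 646 (543 to 762) with guanine, a log2 ratio of 1.65 (1.21 to 2.10). *GCN20*, a regulator of Gcn2, had a log2 ratio of -0.52 (-1.45 to 0.35), which did not differ from 0 beyond counting error.

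The sequence TGACTCA, searched on both strands, stood in the 300 bases before the start codon of 157 of 6001 protein-coding genes (2.62%) and of 67 of 1641 tested genes (4.08%). It stood before 30 of the 149 higher genes with a window (20.1%) and before 0 of the 76 lower genes. Among amino acid genes it was found before 24 of all 65 tested (36.9%) and before 16 of the 32 that were at least 2-fold higher. Among the other higher genes it was found before 14 of 117. The 67 tested genes with the sequence had a median log2 ratio of 0.71 and 30 of them (44.8%) were at least 2-fold higher, against 0.03 and 7.56% of the 1574 without it. Their median gene length was 1257 bases, against 921 for genes without it. A match is a description of the window and not a shown binding site, and *ARG1* and *PCL5* held none in it.

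To show what these matches look like, the sites before genes with high ratios in 7 pathways are printed with 10 bases on each side, from the RefSeq R64 genome, on the strand of the gene, with the match in capitals (TGAGTCA is the same sequence read from the other strand).
HIS4: ccatgcacagTGACTCAcgttttttta
ARG4: agtagatgaaTGACTCActttttggat
ARG8: gctcgctatgTGACTCActtaaagtac
ILV3: cctctccagaTGACTCAgtaatatagt
LEU4: tacgtgtaagTGACTCAgttctttcaa
LYS1: actaagtcgaTGAGTCAaaaaagactc
MET16: agccacaacaTGACTCAgcaaatctcg
HOM2: aagcattgatTGACTCAttttcctctg
IDP1: gcgcggatttTGACTCAcataattcca
SNZ1: catgacataaTGACTCAgccgacaagg
TMT1: ttgatgttcaTGACTCAcagtaatatc
ADH5: cgcggaaggaTGAGTCAaaaagcatgt
The site of *HIS4* (chrIII:68516-68542, minus strand) began 199 bases before the start codon, that of *ARG4* (chrVIII:141565-141591, minus strand) 179 and that of *ILV3* (chrX:466327-466353, minus strand) 135. Those of *LEU4* (chrXIV:426839-426865, minus strand) and *IDP1* (chrIV:334717-334743, plus strand) lay closest, at 101 and 108 bases. Those of *ARG8* (chrXV:58569-58595, plus strand), *LYS1* (chrIX:420970-420996, minus strand), *MET16* (chrXVI:877764-877790, minus strand) and *HOM2* (chrIV:770163-770189, plus strand) lay at 180, 250, 148 and 184 bases. Those of *TMT1* (chrV:540517-540543, minus strand) and *ADH5* (chrII:533525-533551, plus strand), which make no amino acid, lay at 170 and 227 bases. The site of *SNZ1* (chrXIII:458144-458170, plus strand) began 254 bases before its start codon. Read on the minus strand it is also 1 of 2 sites before the divergent *SNO1*, 201 bases from that start codon, the other being at 150 bases.

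**Figure D3:**
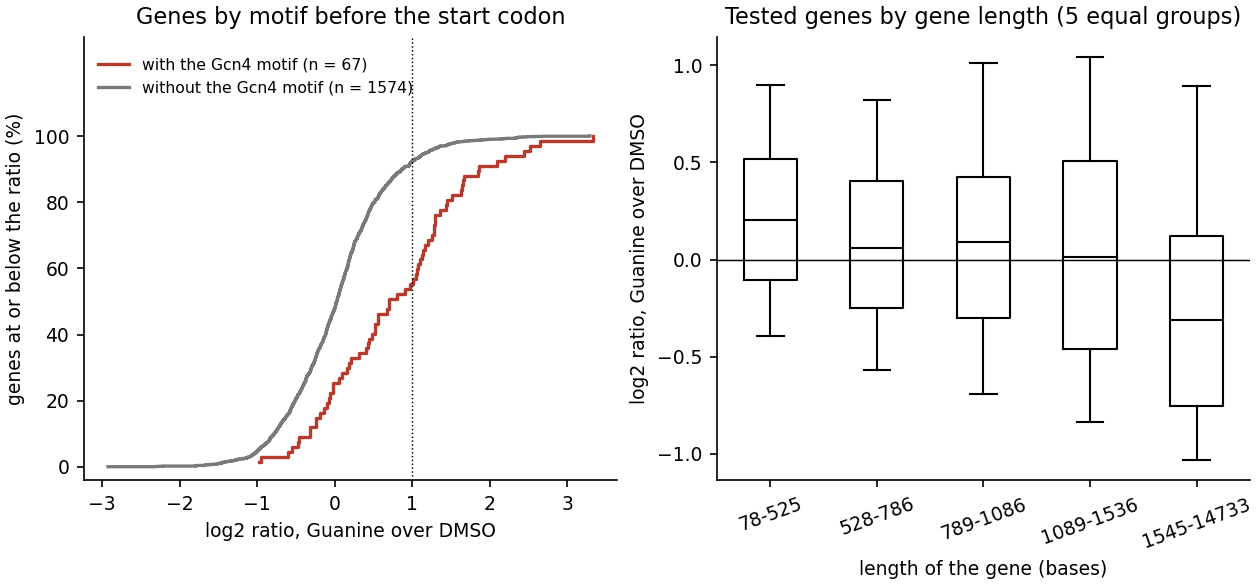
Left, share of genes (y axis, %) at or below each log2 ratio of Guanine over DMSO (x axis), for 67 tested genes with the Gcn4 motif in the 300 bases before the start codon and 1574 without it. The dotted line marks 2-fold. Right, log2 ratios in 5 groups of genes of rising length in bases, with boxes at the quartiles and whiskers at the 10th and 90th percentiles. The medians run from 0.21 in the shortest genes to -0.31 in the longest.

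The amino acid difference was uneven between cells. The 89 genes held a median of 3.56% of a cell's UMIs with guanine (quartiles 1.95% and 5.16%) and 1.87% with DMSO (1.37% and 2.67%). The deposited table divides each library into 2 subclusters, made from the same counts, so their levels are a description. Guanine.2, with 47.7% of the Guanine-treated cells, had a median of 5.19% and DMSO.2, with 24.0% of the DMSO-treated cells, 3.55%. In Guanine.1 the median was 1.98% and in DMSO.1 1.69%. The lowest share of a cell was 0% in DMSO.2 and 2.96% in Guanine.2. DMSO.2 held 7 cells in which 1 gene had over 10% of the UMIs and Guanine.2 held 0, and the pooled values below include them. Both libraries thus held cells with high and with low shares, and the pooled shares were higher with guanine in the high subcluster (5.29% against 3.51%) and in the low subcluster (2.24% against 1.77%). *ARG1* followed this order, with 151 CPM in DMSO.1, 498 in Guanine.1, 1486 in DMSO.2 and 3597 in Guanine.2. It had UMIs in 53.1% of Guanine-treated and 28.8% of DMSO-treated cells, and in 40% and 10.0% after each cell was thinned to 400 UMIs, which left out 33 and 4 shallower cells. *SAG1*, which MATa cells should lack, had UMIs in 2.58% of DMSO-treated cells at a median of 1250 UMIs.

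**Figure D4:**
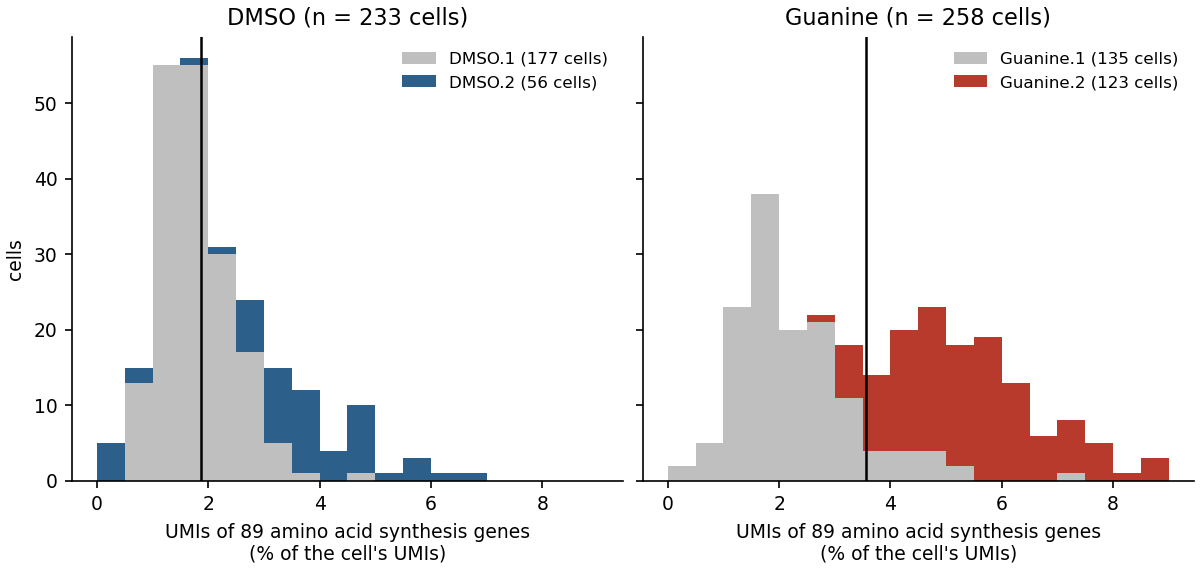
Number of cells (y axis) by the share of a cell's UMIs held by 89 amino acid synthesis genes (x axis, %), for 233 DMSO-treated and 258 Guanine-treated cells. Colours mark the deposited subclusters and vertical lines the library medians, 1.87% and 3.56%. The Guanine library has a broad second group of cells that is smaller in DMSO.

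Among genes with at least 100 UMIs, the 12 highest log2 ratios included *ARG1*, *ARG4*, *HIS3* and *HIS4* from the pathways above. The highest was that of *TMT1*, a trans-aconitate methyltransferase, with 106 CPM (73.0 to 149) for DMSO and 609 CPM (510 to 722) for Guanine, a log2 ratio of 2.52 (1.96 to 3.12). *SNZ1*, which makes vitamin B6 with *SNO1*, had 521 CPM (443 to 607) with DMSO and 2842 (2622 to 3075) with guanine, a log2 ratio of 2.45 (2.20 to 2.71). *SNO1* had 38.6 CPM and 388 CPM on 12 and 84 UMIs, a log2 ratio of 3.33 (2.45 to 4.34). *PDX3*, which makes the active form of the vitamin, had a log2 ratio of 0.58 (0.00 to 1.15). *MTG1*, a GTPase of the mitochondrial ribosome, had 395 CPM (328 to 472) with DMSO and 1794 (1621 to 1982) with guanine. It lies at chrXIII:459424-460527 on the minus strand and ends 123 bases from the end of *SNZ1* (chrXIII:458408-459301, plus strand). Whether the counting used strand is not given in the sources used here, so reads past the end of either gene cannot be assigned.

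*ISU2* and *ISU1*, scaffolds on which iron-sulfur clusters are built, had log2 ratios of 1.89 (1.40 to 2.40) and 1.29 (1.01 to 1.57). The 15 tested iron and copper genes had a median of 0.77. Of them 6 were at least 2-fold higher and 0 lower, against 9.36% and 4.59% of all tested genes. The other 4 were *FIT3*, a cell wall protein that retains siderophores (2.17), the siderophore transporters *SIT1* (1.36) and *ENB1* (1.11), and *FET3*, the multicopper oxidase of iron uptake (1.02). Its partner, the permease *FTR1*, had 427 CPM with DMSO and 374 with guanine, a log2 ratio of -0.19 (-0.61 to 0.22). Drug export genes had a median of 0.99, with 4 of 8 tested genes at least 2-fold higher, against 9.36% of all tested genes. These were the ABC transporter *PDR5* (70.7 CPM against 198, log2 ratio 1.49), the multidrug transporters *FLR1* (344 against 941, 1.45) and *ATR1* (106 against 245, 1.21), and the lipid transfer protein *PDR16* (183 against 424, 1.21). *CIS1*, *FRM2* (a nitroreductase family member) and *ADH5* (an alcohol dehydrogenase) had log2 ratios of 2.44, 2.39 and 1.84. *YOR203W*, with 55 UMIs for DMSO and 143 for Guanine, has no entry in the annotation used here. Its systematic name places it next to *HIS3* (YOR202W), which had 77 and 205 UMIs. Whether reads of *HIS3* were counted for it was not tested.

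**Figure D5:**
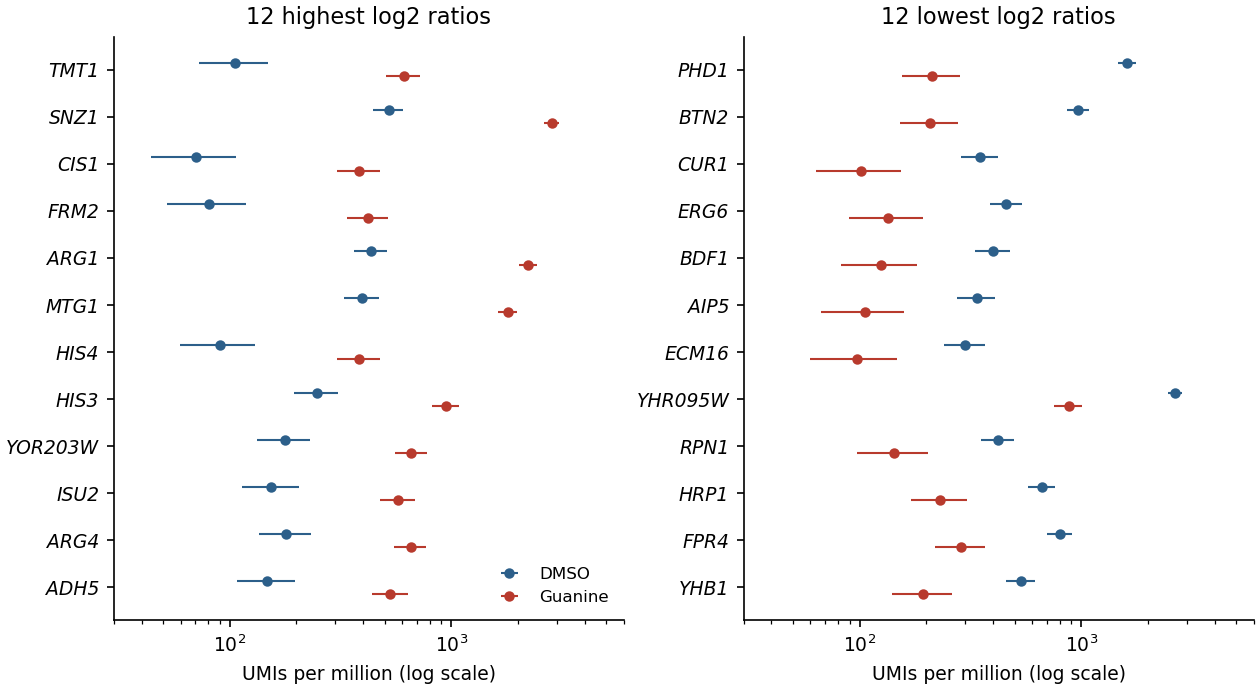
CPM (x axis, log scale) in the DMSO and Guanine libraries of the genes with the 12 highest and 12 lowest log2 ratios among genes with at least 100 UMIs. Points are single libraries and bars are exact 95% counting intervals. The intervals of the 2 libraries do not overlap for these genes, which were chosen by this ratio.

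The guanine and GMP genes had log2 ratios from -0.86 to 0.73. Of 7 tested genes 0 passed 2-fold in either direction, and their median was -0.02. The permease *FCY2* had 186 CPM (142 to 241) with DMSO and 309 (240 to 393) with guanine, a log2 ratio of 0.73 (0.20 to 1.26). The IMP dehydrogenase *IMD4* had 276 CPM (221 to 341) with DMSO and 152 (105 to 214) with guanine, a log2 ratio of -0.86 (-1.49 to -0.27). These were the only 2 of the 7 whose intervals excluded 0. Of all tested genes, 22.6% had an interval above 0 and 16.6% below 0. *IMD3* was listed at 0 for Guanine and had 44 UMIs with DMSO, and *IMD2* was listed at 0 in both. *HPT1*, the salvage enzyme, had 106 and 120 CPM, *XPT1*, which acts on xanthine, 125 and 101, *GUA1* 257 and 254, the guanylate kinase *GUK1* 415 and 374, and the nucleoside diphosphate kinase *YNK1* 116 and 143.

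Of 6 tested genes of de novo purine synthesis, *ADE1* had 93.2 CPM (62.4 to 134) with DMSO and 203 (147 to 272) with guanine, a log2 ratio of 1.123 (0.41 to 1.85). *ADE12*, which leads from IMP towards AMP and has a TGACTCA match, had 112 (78.3 to 156) and 235 (175 to 309), a log2 ratio of 1.06 (0.42 to 1.73). These 2 were at least 2-fold higher, and *ADE8* (0.70) also had an interval above 0. Of all tested genes, 9.36% were at least 2-fold higher and 22.6% had an interval above 0. *ADE3*, *ADE2* and *ADE16* had log2 ratios of 0.26, -0.29 and -0.48 that did not differ from 0 beyond counting error. Under the minimum were *ADE57*, as RefSeq spells ADE5,7, with 16 UMIs for DMSO and 27 for Guanine, and *ADE13*, with 19 and 17. *ADE4* and *ADE6* had 19 and 20 UMIs for DMSO and were listed at 0 for Guanine. Of 8 tested genes of PRPP synthesis and adenine salvage 0 passed 2-fold, with a median of -0.08, and of 7 pyrimidine genes 0 passed 2-fold, with *URA8* (CTP synthase) at 0.75 and *URA1* (dihydroorotate dehydrogenase) at -0.64. In the glycine cleavage list, where 4 genes were tested, the highest log2 ratio was 0.997 for *GCV3*.

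In the lists of mitochondrial and redox genes some members were higher, and the medians were 0.21 to 0.25 against 0.05 for all tested genes. Of all tested genes, 9.36% were at least 2-fold higher and 4.59% lower. *MPC2*, a subunit of the mitochondrial pyruvate carrier, had 2176 CPM (2015 to 2346) with DMSO and 5042 (4748 to 5350) with guanine, a log2 ratio of 1.21 (1.07 to 1.35), while *MPC3* and *MPC1* had 0.13 and -0.10. *IDH1* and *IDH2*, the subunits of the NAD-dependent isocitrate dehydrogenase, had log2 ratios of 1.56 and 1.10. With *MPC2* they were the 3 of 15 tested genes of the TCA list past 2-fold, and its median was 0.21. Of 16 antioxidant genes 3 were at least 2-fold higher, with a median of 0.21, namely *OYE2* (an NADPH oxidoreductase, 919 CPM against 2325), *GRX2* and *PRX1*. In oxidative phosphorylation 1 of 23 tested genes was at least 2-fold higher and 0 lower, with a median of 0.25. The glycerol phosphatase *GPP1* had 1076 and 2417 CPM, a log2 ratio of 1.17 (0.97 to 1.37). *TEF1*, which encodes elongation factor 1 alpha, had 2918 and 5813 CPM, and its copy *TEF2*, of 99.9% identity, 3140 and 4175, so the split between them is uncertain.

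Ribosomal protein genes, the largest group by level, held 36.6% of the UMIs with guanine and 33.5% with DMSO. Of 133 tested genes 5 were at least 2-fold higher and 1 lower, both below the shares of all genes, and the median was 0.17. *RPL10* had 546 CPM with DMSO and 1753 with guanine (log2 ratio 1.68), and *RPL18B* 517 and 254 (-1.03).

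The chaperone list was mostly cytosolic, with some members of the mitochondrion and the endoplasmic reticulum. It had 4 of 25 tested genes at least 2-fold lower and 1 higher, against 4.59% and 9.36% of all tested genes. The list median was -0.63. *BTN2*, which sorts misfolded proteins into deposits, had 964 CPM (858 to 1080) with DMSO and 208 (151 to 278) with guanine, a log2 ratio of -2.22 (-2.70 to -1.76). UMIs of it were found in 47.6% of DMSO-treated and 10.9% of Guanine-treated cells, and in 25.3% and 6.22% of cells thinned to 400 UMIs. *CUR1*, a relative of *BTN2* that is not in the list, had 350 and 101 CPM, a log2 ratio of -1.79 (-2.52 to -1.12). The other 3 lower members were *HSP82*, the inducible Hsp90, with 1211 and 507 CPM (-1.26), *KAR2*, the Hsp70 of the endoplasmic reticulum, with 318 and 120 (-1.41), and *HSP42*, a small heat shock protein, with 222 and 111 (-1.002). Less the median of genes of like length, the log2 ratios of *HSP82* and *KAR2* were -0.82 and -0.97, under 2-fold. *HSC82*, the constitutive Hsp90, had 3692 and 2058 CPM (-0.84). *HSP82* and *HSC82* are 91.8% identical. The member that was higher was *CDC37*, an Hsp90 cochaperone, with 73.9 and 152 CPM on 23 and 33 UMIs.

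Ribosome biogenesis factors assemble ribosomes in the nucleolus. Of 51 tested genes 6 were at least 2-fold lower and 0 higher, against 4.59% and 9.36% of all tested genes. The list median was -0.58, with 7 genes above 0. *CIC1* (180 CPM with DMSO, 69.2 with guanine) had the lowest log2 ratio of the list, -1.38 (-2.31 to -0.54), and *DRS1*, an RNA helicase, had 421 and 198 CPM (-1.09). Over the settings tried the log2 ratio of *DRS1* lay between -1.25 and -0.65. *ECM16*, a helicase for the small subunit RNA that was named by its ratio, had 299 and 96.9 CPM (-1.63). Among translation factors *RPG1*, a subunit of eIF3, had 466 and 171 CPM (-1.45), and *TIF3*, which encodes eIF4B, 877 and 392.1 (-1.16). The list of 29 had 3 genes lower and 0 higher, against the same shares of all tested genes, and a median of 0.04. Of 17 aminoacyl-tRNA synthetases *GLN4* (-1.51) and *SES1* (-1.03) were at least 2-fold lower, against 4.59% of all tested genes.

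The 33 tested proteasome genes had a median of -0.30. Of them 3 were at least 2-fold lower and 0 higher, against 4.59% and 9.36% of all tested genes. All 3 encode subunits of the regulatory particle. *RPN1* had 421 CPM (352 to 500) with DMSO and 143 (97.2 to 203) with guanine, a log2 ratio of -1.56 (-2.17 to -0.98), *RPN2* 694 (605 to 793) and 254 (191 to 330), -1.45, and *RPN7* 453 (381 to 534) and 180 (128 to 246), -1.33. Most proteasome genes are targets of the transcription factor Rpn4. Its sequence GGTGGCAAA, searched on both strands, stood before 27 of the 33 genes and before 73 of all 6001 (1.22%), so the 3 lower genes do not stand out by it. Their sites are shown, with the match in capitals and on the strand of the gene, because both strands occur.
RPN1: tgtgttttacGGTGGCAAAaggcgagcac
RPN2: atttattttcGGTGGCAAAactggataca
RPN7: ataagttaagTTTGCCACCcattgaggat
They lie at chrVIII:164838-164866 and chrIX:220801-220829 on the minus strand and chrXVI:742290-742318 on the plus strand, 145, 119 and 154 bases before the start codons.

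Ergosterol synthesis had 2 of 14 tested genes at least 2-fold lower, against 4.59% of all tested genes, and a median of -0.36. *ERG6*, the sterol methyltransferase, had 460 CPM (387 to 541) with DMSO and 134 (89.6 to 192) with guanine, a log2 ratio of -1.78 (-2.41 to -1.20), and *ERG20*, farnesyl pyrophosphate synthase, 415 and 194 (-1.10). In glycolysis 0 of 10 tested genes passed 2-fold and the median was -0.22, yet *TDH3*, *ENO2*, *PDC1* and *ADH1* (the last 2 from fermentation) were 4 of the 6 genes with the largest falls in CPM. *TDH3*, glyceraldehyde-3-phosphate dehydrogenase, had 21260 CPM (20750 to 21778) with DMSO and 12110 (11651 to 12582) with guanine, a log2 ratio of -0.81 (-0.88 to -0.75). *ENO2*, enolase, had 9682 and 5517 CPM (-0.81), *PDC1*, pyruvate decarboxylase, 7590 and 4752 (-0.68), and *ADH1*, which makes ethanol, 6436 and 4553 (-0.50). *TDH2* (-0.93) is 95.8% identical to *TDH3*, and *ENO1* (0.05) 94.9% identical to *ENO2*. *TPI1* (-0.06), *HXK2* (-0.05) and *GPM1* (0.23) did not share the difference. The cell wall mannoprotein *CCW12* had 13821 and 9665 CPM (-0.52). Glycolysis and fermentation genes held a median of 4.30% of a cell's UMIs with guanine and 6.63% with DMSO, and 3.215% in Guanine.2 and 4.83% in DMSO.2.

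Log2 ratios were lower in longer genes, with a rank correlation of -0.25 over 1643 genes that share both libraries. When the genes were cut into 5 groups by length, in the longest (1545 to 14733 bases) 39 genes were at least 2-fold lower and 27 higher, and in the shortest (78 to 525 bases) 3 and 23. The lower genes had a median length of 1558.5 bases, the higher genes 1005 and all tested genes 933. Lists with long members are touched by this, including chaperones (median 1521 bases) and ribosome biogenesis (1380). Less the median of genes of like length, an alternative chosen after these values were seen, their medians were -0.45 and -0.43 and that of arginine synthesis 1.66. The part of RNA quality or capture in this relation was not tested.

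For 3 genes the difference lay in few cells. *PHD1*, a transcription factor of pseudohyphal growth, had the lowest log2 ratio of genes with at least 100 UMIs, -2.92 (-3.39 to -2.49), with 501 UMIs for DMSO and 46 for Guanine. It stood at 7064 CPM in DMSO.2 and 143 in DMSO.1. Without the 7 DMSO-treated cells and 1 Guanine-treated cell in which 1 gene held over 10% of the UMIs, its log2 ratio was 0.37. The same step moved *YHR095W* from -1.59 to 0.48 and *YNL143C* from -1.38 to 0.19. Without these cells 74 of the 77 lower genes were still at least 2-fold lower. Over the settings tried, *BTN2* stayed between -2.28 and -1.84 and *ERG6* between -1.85 and -1.69. *BDF1*, a bromodomain protein, had 398 and 125 CPM (-1.68), *HRP1*, a factor of mRNA cleavage, 662 and 231 (-1.52), *FPR4*, a nuclear prolyl isomerase, 800 and 286 (-1.48), *YHB1*, the flavohemoglobin, 533 and 194 (-1.46) and *AIP5* 337 and 106 (-1.67).

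Guanine was also added to MPA in a further pair of libraries that shares no sample with this comparison, with 85 MPA-treated and 268 MPA + Guanine-treated cells. There 10.8% of 1394 tested genes were at least 2-fold higher with guanine and 9.11% lower. Of the 157 genes higher with guanine over DMSO, 77 could be tested there and 28 were at least 2-fold higher and 0 lower, with a median log2 ratio of 0.79, while 56 were listed at 0 for MPA. *ARG1* had 2.41, *MTG1* 2.46, *SNZ1* 1.42 and *TMT1* 1.41 there. The 51 tested amino acid genes had a median of 0.56, with 11 at least 2-fold higher and 2 lower. Of the 77 genes lower with guanine over DMSO, 70 were tested with MPA, of which 14 were lower and 4 higher, with a median of -0.19. Ribosomal protein genes, at 0.17 over DMSO, had a median of -0.73 there, and chaperones, at -0.63 over DMSO, 0.08. These are values of single libraries and their differences were not tested.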

How the data were processed

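The authors trimmed reads with Trimmomatic, aligned them to the R64-1-1 genome with STAR, counted UMIs of each gene in each cell with UMI-tools, and left out cells with outlying UMI or gene numbers with scater. Subclusters came from SC3. These counts were deposited by the authors without normalization, as whole numbers in 1 matrix, with each cell's library and subcluster. A filter on genes is mentioned by the authors, but its threshold and the use of strand in counting are not given in the sources used here.

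CPM were computed from the sum of UMIs over all cells of a library. No pseudocount was used. Intervals are exact Poisson intervals for CPM and exact conditional binomial intervals for log2 ratios. A gene counted as higher or lower at 2-fold. No model was fitted across cells, which are not replicates. The DMSO library held 311199 UMIs and the Guanine library 216768. Lists were described by counts and medians beside those of all tested genes. The members and lists were chosen with earlier results of these data known.

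Genes were named by a rule: the 12 highest and 12 lowest log2 ratios among genes with 100 UMIs, the 6 largest rises and falls in CPM, all GMP and de novo purine genes, up to 4 members at each end of the other lists or more where a list is described gene by gene, the 5 genes with most UMIs listed at 0 in the other library, deleted and MATalpha genes, and neighbours within 500 bases. Names, lengths, promoters and copies (blastn 2.17.0+) came from RefSeq R64, in which 4612 of 4777 genes had an entry. Lengths run from start to end of the gene model, introns included. Of them 96.3% are multiples of 3, so they hold no UTRs.

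Alternatives were TMM scaling (edgeR 4.0.16), averaging CPM over cells, totals without ribosomal protein genes, thinning to 400 UMIs, leaving out cells under 400 UMIs, the 5% of cells with the most UMIs (no doublet caller was run) or cells dominated by 1 gene, other minima and folds, a pseudocount of 1 UMI, and those named as added later. Other steps used python 3.11.15, numpy 2.4.6, scipy 1.17.1 and pandas 2.3.3 and were tested on simulated data. A measured gene is not reported here by name.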

Additional observations from a re-analysis of the deposited data

Results flagged for a closer look

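Of the 77 genes that were at least 2-fold lower with guanine over DMSO, 4 were at least 2-fold higher with guanine over MPA, and 0 of the higher genes went the opposite way. Each value compares 1 library with 1 other, and the difference between the 2 comparisons was not tested. *CUR1*, which sorts misfolded proteins, had a log2 ratio of -1.79 over DMSO and 1.19 over MPA. *YGR130C*, which was named after its values were seen, had -1.05 and 1.28. *YHR095W* had -1.59 and 1.19, and *YNL143C* -1.38 and 2.08. The last 2 genes held many UMIs in few DMSO-treated cells. Without the cells in which 1 gene held over 10% of the UMIs, their log2 ratios over DMSO were 0.48 and 0.19. Their values over MPA were not recomputed without such cells.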

How the results depend on the processing

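The counts of 157 higher and 77 lower genes moved by over 1.5 times with the minimum, the fold and thinning. They were 239 and 121 with no minimum, 33 and 19 with at least 200 UMIs, 44 and 31 with cells thinned to 400 UMIs (611 genes tested), 321 and 261 at a fold of 1.5, and 22 and 4 at a fold of 4. TMM scaling gave 140 and 100, of which 140 and 77 were the same genes. Of 157 and 77 genes, 127 and 45 were also called when the median of genes of like length was taken off, which left 144 and 64. The median log2 ratio of all genes, 0.05, was -0.016 with TMM and 0.12 with totals without ribosomal protein genes. Of 486 values of the medians of 40 lists, 480 stayed within the 95% order-statistic interval of the list's median. Those that did not were small subunit ribosomal proteins (0.11 with TMM, 0.24 with totals without ribosomal protein genes, 0.057 less the median of genes of like length), large subunit ribosomal proteins (0.015) and aminoacyl-tRNA synthetases (0.20) less that median, and ergosterol synthesis (-1.01 with thinned cells). The length alternative was chosen after seeing the data. In the amino acid lists 26 to 36 of 65 tested genes were higher where the same genes were tested, 12 of 36 with thinned cells, 12 of 25 with at least 200 UMIs and 35 of 76 with no minimum, and the median was 0.73 to 1.08. Of 2508 values of 296 named genes, 61 besides the 3 below lay outside the counting interval of the gene. Of the 102 named genes past 2-fold, 30 were under 2-fold in at least 1 setting and 3 changed sign, all without the cells dominated by 1 gene: *PHD1* to 0.37, *YHR095W* to 0.48 and *YNL143C* to 0.19. Of the 194 under 2-fold, 40 changed sign in at least 1 setting. Causes were not tested where the setting's own construction does not give them. The depth limits low genes most, since a gene with 50 UMIs has a wide interval. With 1 library per condition no result has a replicate check. No paired analysis was possible because each condition is 1 library and the labels give no replicate numbers.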

Other observations

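Some genes past 2-fold belonged to smaller groups. In the phosphate list, the sodium-phosphate cotransporter *PHO89* had 228 CPM with DMSO and 577 with guanine, a log2 ratio of 1.34 (0.91 to 1.78), and the acid phosphatase *PHO5* 157 and 55.4 on 49 and 12 UMIs, -1.51 (-2.55 to -0.58), while the list of 11 had a median of -0.00. *ZRT1*, the high-affinity zinc transporter, had 70.7 and 189 CPM, a log2 ratio of 1.42 (0.64 to 2.24). *GRE2*, a reductase induced by stress, had 135 and 424 CPM (1.65), and *COX9*, a subunit of cytochrome c oxidase, 341 and 738 (1.116). The cyclin-dependent kinase inhibitor *SIC1* had 167 and 69.2 CPM on 52 and 15 UMIs (-1.27). Of 9 tested histone genes 0 passed 2-fold, with *HHF2* at -0.94 and *HTA1* at 0.44.

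Of genes listed at 0 in 1 library, 26 with at least 50 UMIs were at 0 for Guanine and 1 for DMSO. *PMA1*, the proton pump of the plasma membrane, was listed at 0 for Guanine and had 84 UMIs in 28.3% of DMSO-treated cells. Since growing cells need *PMA1*, the 0 is no measure of absence. *SPN1*, *PTC3*, *HRI1* and *YLR227W-B* (a Ty element with many copies) followed with 82, 72, 70 and 67 UMIs for DMSO. *CCP1*, cytochrome c peroxidase, was listed at 0 for DMSO and had 57 UMIs in 17.4% of Guanine-treated cells, and *COX12*, *YIP3*, *YCR013C* and *DIA1* had 42, 41, 40 and 37.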
